A study of Mus musculus with 9 samples.

Results

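The 50 mitosis and spindle genes examined here encode proteins of mitotic entry, the spindle, the kinetochore, and cytokinesis. They were chosen by gene name and known role, with earlier results of these data known. Each of the 50 symbols matched 1 Ensembl identifier among the 50686 genes of the deposited count table, and all 50 passed the filter on low counts that left 15531 genes to test. The genes were measured by RNA-Seq in 9 libraries of total RNA, 3 from each of 3 groups. The control group was MC3T3-E1, a clonal mouse preosteoblast line that makes bone matrix, without the inhibitor. The treated group was the same line given 10 μM SB216763, which blocks the kinase GSK3, for 14 days. The third group was mouse pulmonary endothelial cells (ECs) with no treatment, which the study isolated by FACS. No group carried a stated transgene or mutation, and neither the time in culture of the controls and the ECs nor the age, sex, or strain of the mice behind the ECs is given in the sources used here. Treatment and time in culture therefore cannot be told apart. The labels do not say whether the 3 replicates of a group were separate cultures or animals, so the tests measure the spread between these libraries.

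Cells enter mitosis when cyclin B and CDK1 become active, helped by CDC25 phosphatases and by the Polo and Aurora kinases. Chromosomes condense, microtubules attach to them at kinetochores, and the spindle checkpoint holds back the anaphase-promoting complex until every chromosome is attached. CDC20 then activates that complex, securin is destroyed, separase opens the cohesin rings, and the central spindle guides the cleavage of the cell. Most of these genes are transcribed mainly in the G2 and M phases, so their messenger RNA is widely used as a readout of how many cells of a culture divide. In RNA from whole cultures, fewer dividing cells and less mitotic RNA in each cell cannot be told apart.

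The libraries held 30990107 to 68946333 counts, and a count of 3 in a library corresponded to 0.0473 to 0.104 CPM, the count scaled to library size by the trimmed mean of M values (TMM). This limit covers counting error only. The lowest member value in any library was 1.49 CPM, so all 50 genes were well above this level in all 9 libraries. Endothelial markers (Cdh5, Pecam1, Kdr, Tie1, Tek, and Emcn) summed to 6079 to 6230 CPM in the ECs, to 2.06 to 2.78 CPM in the controls, and to 2.11 to 2.64 CPM in the SB216763-treated osteoblasts, in which 0 of the 6 passed the test defined with the first comparison. Their counts in an osteoblast library were low, from 2 for Tek to 49 for Pecam1, so small changes could be missed. Their log2 fold changes against the controls ran from -0.64 (SE 0.36) for Tie1 to 0.75 (SE 0.40) for Tek. Against the ECs all 6 passed the test as lower in treated cells (-11.64 to -9.27), against 40.3% of all genes tested. For the marker counts against the controls, the background is 32% of all genes tested passing as lower in treated cells and 32.9% as higher. Osteoblast markers (Sp7, Runx2, Alpl, Ibsp, Col1a1, and Bglap) summed to 20090 to 28687 CPM in the controls, 2826 to 2975 CPM in the treated cells, and 28.9 to 38.3 CPM in the ECs, and all 6 passed the test as lower in the treated cells. Fibroblast markers summed to 5148 to 5911, 854 to 923, and 23.5 to 25.9 CPM in the same order, smooth muscle markers to 2833 to 3025, 144 to 162, and 18.004 to 19.5 CPM, and leukocyte markers to 25.9 to 27.7, 8.28 to 9.88, and 56.3 to 58.4 CPM. The fibroblast and smooth muscle sums are mostly Col3a1 and Acta2, which were lower in treated cells (-3.29 ± 0.09 and -4.34 ± 0.06, log2 fold change and SE). Of the 4 fibroblast markers 2 were lower and 2 higher in treated cells, the higher ones being Pdgfra (1.01 ± 0.05) and Lum (0.72 ± 0.07), and of the 4 smooth muscle markers 2 were lower and 1, Des (0.27 ± 0.08), was higher. Of the 2 leukocyte markers tested, Lyz2 was lower (-1.88 ± 0.08) and Cd68 higher (1.63 ± 0.20), from a mean of 0.532 CPM to 1.63 CPM. In the ECs the leukocyte sum was mostly Cd68 (mean 46.6 CPM) and Lyz2 (10.4 CPM), while Ptprc had a mean of 0.09 CPM. Epcam and Cd3e were at 0 in all 9 libraries, and 5 lung epithelial markers summed to at most 0.243 CPM. The part of these marker differences in the results was not tested. In control replicate 2, long transcripts were lower than in the other controls: over the genes with at least 10 CPM in those controls, the median log2 ratio was 0.09 in those of the lowest quartile of exon length and -0.10 in those of the highest. Among the members the log2 ratio was lowest for Cenpf (-0.50) and Mki67 (-0.48), which have the longest exon sequence of the 50 genes. SB216763 replicate 3 also stood apart from its group. The chi-square of the counts per gene was 21.05 and 27.4 between it and the other treated libraries and 3.24 between those libraries. Among the controls it was 104 between replicates 1 and 2, 50.1 between 1 and 3, and 27.2 between 2 and 3. Among the ECs it was 2.85 to 4.57. This value grows with the depth of the libraries, so it cannot be compared between groups. Without SB216763 replicate 3, 49 members were lower and 1 higher than in controls at a median log2 fold change of -3.53, and without control replicate 2 the counts were the same and the median was -3.50.

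Promoters of mitotic genes are known for a short element, the cell cycle genes homology region (CHR), bound by complexes that repress the genes in resting cells and activate them before mitosis, and for CCAAT boxes, bound by NF-Y. Promoter windows from RefSeq (build GRCm38.p6, 250 bases before to 50 bases after a start site) were held for 42 of the 50 genes, in 45 windows. The windows were searched on both strands for TTTGAA or TTCGAA (the CHR core), for CCAAT, and for TTTGGCGC or TTTCGCGC (an E2F core). TTCGAA reads the same on both strands and was counted once, and in 0 of the 45 windows did matches of different motifs share a base. A match describes the letters and is not a site of binding. Upstream stretches of 6 members are shown 5′ to 3′ on the strand of the gene, with every match in capitals; they were chosen to show the arrangement of the letters in 5 genes that fell strongly with SB216763 and in Cdc25b, which fell little. The stretches are Cdk1 chr10:69352939-69353138 (minus strand), Top2a chr11:99024190-99024389 (minus strand), Ccnb2 chr9:70421555-70421754 (minus strand), Cdc20 chr4:118437353-118437552 (minus strand), Kif11 chr19:37376182-37376381 (plus strand), and Cdc25b chr2:131186748-131186947 (plus strand), and all of them lie outside annotated exons.
Cdk1: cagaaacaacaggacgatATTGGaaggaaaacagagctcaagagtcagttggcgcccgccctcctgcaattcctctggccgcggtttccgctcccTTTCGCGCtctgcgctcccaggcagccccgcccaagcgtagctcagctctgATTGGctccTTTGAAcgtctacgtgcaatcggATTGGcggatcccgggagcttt
Top2a: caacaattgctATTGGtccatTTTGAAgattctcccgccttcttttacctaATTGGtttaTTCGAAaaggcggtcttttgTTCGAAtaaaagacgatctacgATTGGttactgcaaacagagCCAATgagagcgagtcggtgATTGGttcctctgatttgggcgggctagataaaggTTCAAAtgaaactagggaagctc
Ccnb2: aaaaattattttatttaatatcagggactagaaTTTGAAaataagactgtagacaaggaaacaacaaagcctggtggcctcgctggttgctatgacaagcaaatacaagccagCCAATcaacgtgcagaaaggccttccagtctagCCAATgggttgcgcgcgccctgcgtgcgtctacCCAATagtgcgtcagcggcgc
Cdc20: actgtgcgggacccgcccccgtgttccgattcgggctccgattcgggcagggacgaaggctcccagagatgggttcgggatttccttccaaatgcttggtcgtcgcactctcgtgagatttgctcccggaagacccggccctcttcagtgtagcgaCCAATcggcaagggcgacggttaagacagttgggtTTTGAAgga
Kif11: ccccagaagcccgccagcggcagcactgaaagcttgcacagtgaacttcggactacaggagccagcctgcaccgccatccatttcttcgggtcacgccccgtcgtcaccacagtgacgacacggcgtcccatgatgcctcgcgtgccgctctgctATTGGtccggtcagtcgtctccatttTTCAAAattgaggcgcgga
Cdc25b: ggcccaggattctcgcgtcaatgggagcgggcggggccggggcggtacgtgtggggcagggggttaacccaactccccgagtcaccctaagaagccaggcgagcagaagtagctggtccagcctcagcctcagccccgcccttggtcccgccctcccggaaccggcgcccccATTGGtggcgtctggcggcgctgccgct
In the Cdk1 stretch, the capitals are 3 CCAAT boxes in reverse orientation (ATTGG), 1 CHR core, and the only E2F core among these 6 stretches. The Top2a stretch holds 4 CHR cores and 5 CCAAT boxes. The Cdc25b stretch holds 1 CCAAT box, and its CHR core lies just after the start site, outside the stretch shown.

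In many members the CHR core lay close to the start site, and 30 bases around it are printed for 12 of them, chosen to show the core side by side in genes of different roles, with the core in capitals.
Plk1: ttcccagcgccgcgTTTGAAttcggggagg
Aurka: ttaaaaggagaaccTTTGAAttgtaacggc
Bub1: ggctgcgcggggaaTTCGAAtcgccggcgg
Cenpa: ggggcgggtgatttTTTGAActgctggcga
Cenpf: gcggcggcgggcagTTTGAAtcgctcgtgc
Hmmr: aaagttgaggtaaaTTTGAAttcaggcgag
Kif23: cgctgattggcctgTTTGAAatgcgccggg
Racgap1: ggctggtgcgtgatTTTGAAccggatctgg
Prc1: cgcctctggctcggTTTGAAttccgcgggg
Espl1: ggtcactagggataTTTGAAaggaggtgct
Mki67: aaccgccgttttggTTTGAAtcgggcgggc
Ncapg: tcccgcgatagttgTTTGAAaactctggcg
Counted from 0 at the first transcribed base, the core began at position 30 in Plk1, 32 in Aurka, 14 in Bub1, 16 in Cenpa, 8 in Hmmr, 5 in Racgap1, and 2 in both Cenpf and Kif23. It began before the start in Prc1, Espl1, Ncapg, and Mki67, at -5, -27, -30, and -98. The cores after the start lie in the part transcribed from that RefSeq start. In the annotation used for the gene coordinates, the Kif23 and Hmmr cores lie upstream of the gene, and the Aurka core crosses its start. The stretches lie at chr7:122159451-122159480 (plus strand, Plk1), chr2:172370523-172370552 (minus strand, Aurka), chr2:127831830-127831859 (minus strand, Bub1), chr5:30666888-30666917 (plus strand, Cenpa), chr1:189688069-189688098 (minus strand, Cenpf), chr11:40733414-40733443 (minus strand, Hmmr), chr9:61946782-61946811 (minus strand, Kif23), chr15:99651636-99651665 (minus strand, Racgap1), chr7:80294432-80294461 (plus strand, Prc1), chr15:102296252-102296281 (plus strand, Espl1), chr7:135716462-135716491 (minus strand, Mki67), and chr5:45669881-45669910 (plus strand, Ncapg).

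The first comparison set the SB216763-treated osteoblasts against the controls. Since treatment and time in culture cannot be told apart, words such as fell, rose, and changed describe differences between these groups only. Nearly all of the 50 genes were lower in the treated cells, and most by a similar amount. The summed level of the 50 genes was 4245, 4219.7, and 4259 CPM in the 3 controls and 502, 524, and 529 CPM in the 3 SB216763-treated libraries, and the treated libraries all lay far below the controls. As a share of all counts, the members took 0.391% to 0.396% of a control library and 0.0536% to 0.0570% of a treated one. A gene passed the test at a Benjamini-Hochberg adjusted p under 0.01 in edgeR's quasi-likelihood test over all 15531 genes, and passed the fold cutoff when its log2 fold change was also at least 2 in size. With SB216763, 49 of the 50 members passed the test as lower, against 32% of all genes tested, and 1 passed it as higher, against 32.9%. The fold cutoff was passed by 47 members as lower, against 5.84% of all genes, and by 0 as higher, against 3.81%. The treated libraries lay entirely below the controls in 49 members, against 35.9% of all genes, and entirely above them in 1, against 37.3%. The median log2 fold change was -3.49, a level 11.2-fold lower, compared with 0.01 for all genes, and 38 members lay between -4 and -3.

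**Figure D1:**
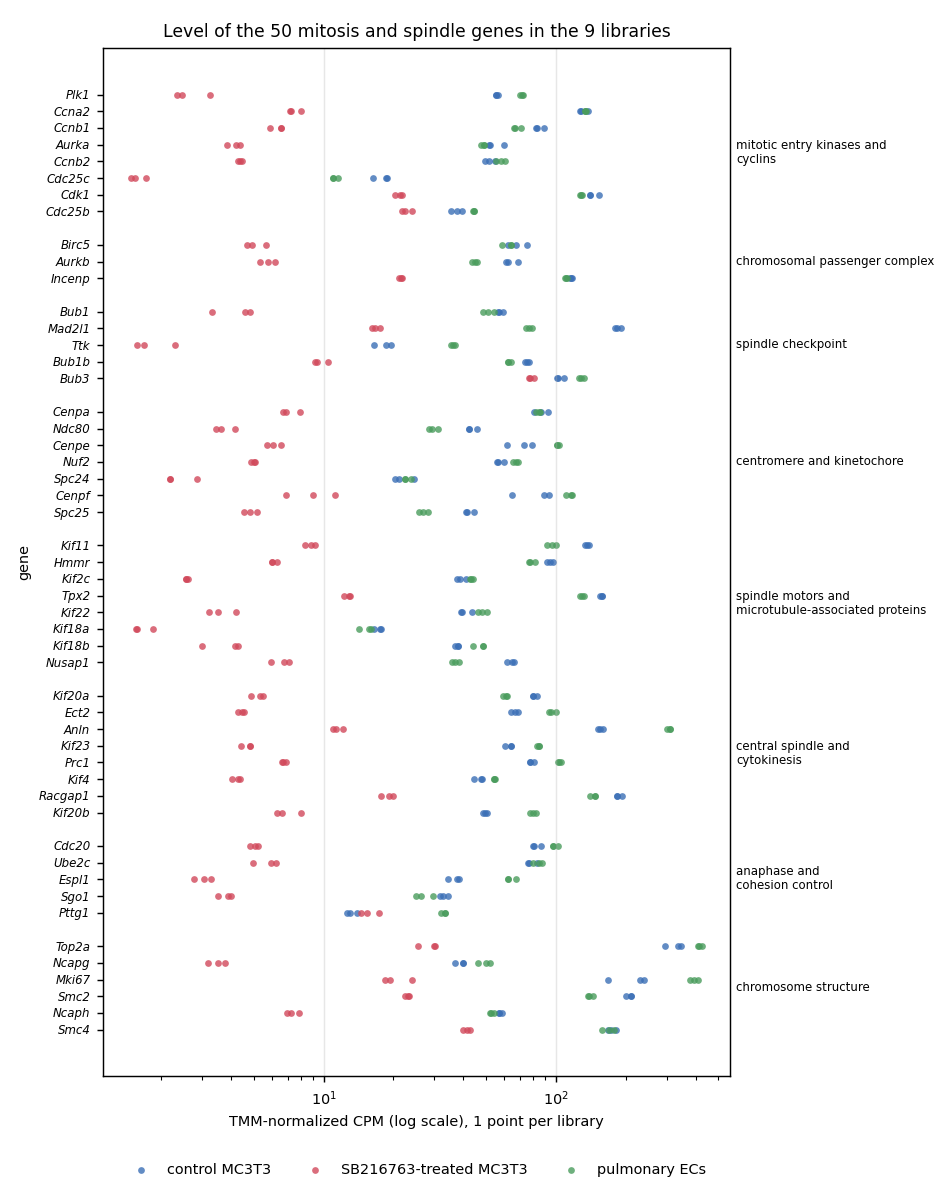
Level of each of the 50 genes in each library, in TMM-normalized CPM on a log scale, with 1 point per library and the genes grouped by role and ordered by their change with SB216763. In 49 genes the 3 SB216763-treated libraries (red) lie to the left of the 3 controls (blue), and the ECs (green) lie near the controls; Pttg1 is the exception for the treated libraries.

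The kinases and cyclins of mitotic entry were all lower in treated cells, 7 of 8 past the fold cutoff, with a median log2 fold change of -3.65. Plk1, the Polo kinase of centrosome maturation and mitotic entry (ENSMUSG00000030867.7, GRCm38 chr7:122159439-122169873, plus strand), changed most of all 50 members. Its level was 55.0, 56.5, and 55.3 CPM in the controls and 2.35, 3.26, and 2.45 CPM in treated cells, a log2 fold change of -4.36 ± 0.08 (SE) from 3 libraries a group, with an adjusted p of 1.31e-16 in edgeR's quasi-likelihood test. Values after ± are standard errors (SE) throughout. Each is the size of the log2 fold change divided by the square root of the F statistic of edgeR's test. They are approximate and may be too small where changes are large. No treated library came near a control, and Plk1 stood at 4.86% of its control level. Ccna2, the cyclin A gene, ranked next at -4.13 (SE 0.06), from 127, 138, and 128 CPM to 7.25, 7.14, and 8.01 CPM. Ccnb1, the main mitotic cyclin, stood at 83.3, 88.6, and 81.8 CPM in the controls and 6.56, 5.89, and 6.59 CPM in treated cells, and its log2 fold change was -3.74 (SE 0.06). Cdk1, the kinase that the B-type cyclins activate, had 139.8, 153, and 139.8 CPM in the controls and 21.3, 21.8, and 20.4 CPM after treatment, a smaller log2 fold change of -2.77 ± 0.05 (SE). Both genes fell in every treated library, and within each group the 3 values lay close together. Ccnb2, Aurka, and Cdc25c had log2 fold changes of -3.57, -3.72, and -3.49.

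Cdc25b, one of the phosphatases that switch CDK1 on (ENSMUSG00000027330.16, GRCm38 chr2:131186949-131198497, plus strand), decreased far less than its paralog Cdc25c. Its level was 35.4, 39.5, and 37.5 CPM in the controls and 24.1, 22.5, and 21.8 CPM in treated cells, so that the 2 groups did not overlap but stayed close. The log2 fold change was -0.72 (SE 0.05) with an adjusted p of 4.83e-09 (edgeR), a decrease that passed the test and not the fold cutoff. Cdc25c, which shares 12.7% of its exon length with an antisense gene, went from 16.3, 18.8, and 18.6 CPM to 1.49, 1.54, and 1.72 CPM.

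The chromosomal passenger complex, which corrects faulty attachments and starts cytokinesis, fell in all 3 members. Aurkb, its kinase, stood at 62.5, 68.9, and 60.8 CPM in the controls and 5.30, 5.79, and 6.15 CPM in treated cells, a log2 fold change of -3.48 ± 0.07 (SE). Birc5, which encodes survivin, moved in the same way, from 62.5, 74.8, and 67.1 CPM to 4.67, 4.93, and 5.64 CPM (-3.74 ± 0.08). Incenp, the scaffold of the complex, stood at 117, 116, and 115 CPM in the controls and 21.8, 21.2, and 21.6 CPM in treated cells, which is 18.5% of its control level. Its log2 fold change of -2.43 ± 0.04 (SE) was thus smaller than that of both partners, although all 3 passed the fold cutoff.

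Of the 5 spindle checkpoint genes, 4 passed the fold cutoff. Bub1, a checkpoint kinase at the kinetochore, had the lowest ratio of them, with 57.1, 59.1, and 56.4 CPM in the controls, 4.59, 3.31, and 4.85 CPM in treated cells, and a log2 fold change of -3.76 ± 0.09 (SE). Mad2l1, Ttk, and Bub1b, which encode MAD2, MPS1, and BUBR1, had log2 fold changes of -3.46, -3.29, and -2.95. Bub3, the small partner that brings BUB1 and BUBR1 to the kinetochore (ENSMUSG00000066979.6, GRCm38 chr7:131560222-131571895, plus strand), stood at 102, 108, and 102 CPM in the controls and 76.7, 80.7, and 77.2 CPM in treated cells. Every treated library was below every control, and yet the log2 fold change was only -0.41 (SE 0.05), with an adjusted p of 5.43e-07 (edgeR), the smallest decrease of the 49.

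All 7 centromere and kinetochore genes passed the fold cutoff, within a narrow range of log2 fold changes from -3.59 to -3.12. Cenpa, the histone H3 variant that marks the centromere, stood at 80.5, 92.2, and 86.1 CPM and 6.68, 7.90, and 6.89 CPM in controls and treated cells. The 4 subunits of the NDC80 complex, which binds microtubules, all fell, with log2 fold changes of -3.54 for Ndc80, -3.52 for Nuf2, -3.19 for Spc24, and -3.12 for Spc25. Spc25 had 41.4, 44.3, and 41.0 CPM in the controls and 4.56, 5.16, and 4.85 CPM in treated cells. Cenpf had the widest spread in both osteoblast groups, with 89.1, 64.5, and 93.3 CPM in the controls and 6.91, 8.97, and 11.2 CPM in treated cells. Its lowest control is the replicate that stands apart for long transcripts, and it still lay above all 3 treated libraries. The kinesin Cenpe had a log2 fold change of -3.54.

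The 8 spindle motors and microtubule-associated proteins all passed the fold cutoff, with log2 fold changes from -3.96 to -3.28. Kif11, the kinesin that pushes spindle poles apart, stood at 136, 134, and 139 CPM in the controls and 8.34, 8.81, and 9.15 CPM in treated cells. Nusap1, which bundles spindle microtubules, changed least of the 8, from 65.0, 66.0, and 61.3 CPM to 5.96, 7.09, and 6.75 CPM. Hmmr, Kif2c, Tpx2, Kif22, Kif18a, and Kif18b lay between them.

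The genes of the central spindle and cytokinesis likewise passed the fold cutoff in all 8 cases. Kif20a, a kinesin of the central spindle, had the lowest ratio, with 79.5, 82.8, and 79.7 CPM in the controls, 4.87, 5.32, and 5.47 CPM in treated cells, and a log2 fold change of -3.95 ± 0.06 (SE). For this gene 29.3% of the exon length overlaps an antisense gene, and the strand setting of the counts is not given in the sources used here, so reads of the partners cannot be told apart. Its paralog Kif20b, which has no such overlap, changed least, from 49.8, 48.4, and 50.6 CPM to 6.28, 6.62, and 8.03 CPM (-2.83 ± 0.07). Ect2, the exchange factor that turns on RhoA at the cleavage site, had a log2 fold change of -3.90, and Anln, which encodes the ring scaffold anillin, of -3.76. The values were -3.74 for Kif23 and -3.30 for Racgap1, which together form centralspindlin, -3.54 for the microtubule bundler Prc1, and -3.46 for the kinesin Kif4.

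Among the 5 genes of anaphase and cohesion control, 4 fell and 1 rose. Cdc20, which activates the anaphase-promoting complex, stood at 79.8, 86.1, and 80.6 CPM in the controls and 4.82, 5.21, and 5.07 CPM in treated cells, a log2 fold change of -4.03 ± 0.06 (SE). The log2 fold changes were -3.78 for Ube2c, the ubiquitin-conjugating enzyme of that complex, -3.60 for Espl1, the separase gene, and -3.11 for Sgo1, which protects cohesin at the centromere. Pttg1, the gene of securin, which holds separase inactive (ENSMUSG00000020415.16, GRCm38 chr11:43420250-43426251, minus strand), was the only member higher in treated cells. Its level was 12.6, 14.0, and 13.1 CPM in the controls and 15.3, 17.4, and 14.5 CPM in treated cells. The groups did not overlap, but the gap between the highest control and the lowest treated library was small. The log2 fold change was 0.25 (SE 0.07) with an adjusted p of 0.00472 in edgeR's quasi-likelihood test. This call was lost without control replicate 1 (0.21, adjusted p 0.0296), without control replicate 3 (0.24, adjusted p 0.0163), without SB216763 replicate 2 (0.17, adjusted p 0.0404), and in an edgeR fit of the 2 groups alone (0.23, adjusted p 0.0155).

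The chromosome structure genes all passed the fold cutoff. Mki67, the gene of the Ki-67 antigen used to stain dividing cells, stood at 231, 168, and 239 CPM in the controls and 18.4, 19.3, and 24.05 CPM in treated cells. The lowest control is again replicate 2, and it remained far above all the treated libraries. Top2a, the topoisomerase that untangles sister chromatids, had 346, 296, and 336 CPM in the controls and 25.6, 30.0, and 30.3 CPM in treated cells. The log2 fold changes were -3.37 (SE 0.12) for Mki67 and -3.51 (SE 0.07) for Top2a. The condensin subunits were less even. Their log2 fold changes were -3.48 for Ncapg, -3.17 for Smc2, -2.96 for Ncaph, and -2.08 for Smc4, and Smc4 kept 41.3, 39.9, and 42.5 CPM of its 181, 173, and 168 CPM in the controls.

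**Figure D2:**
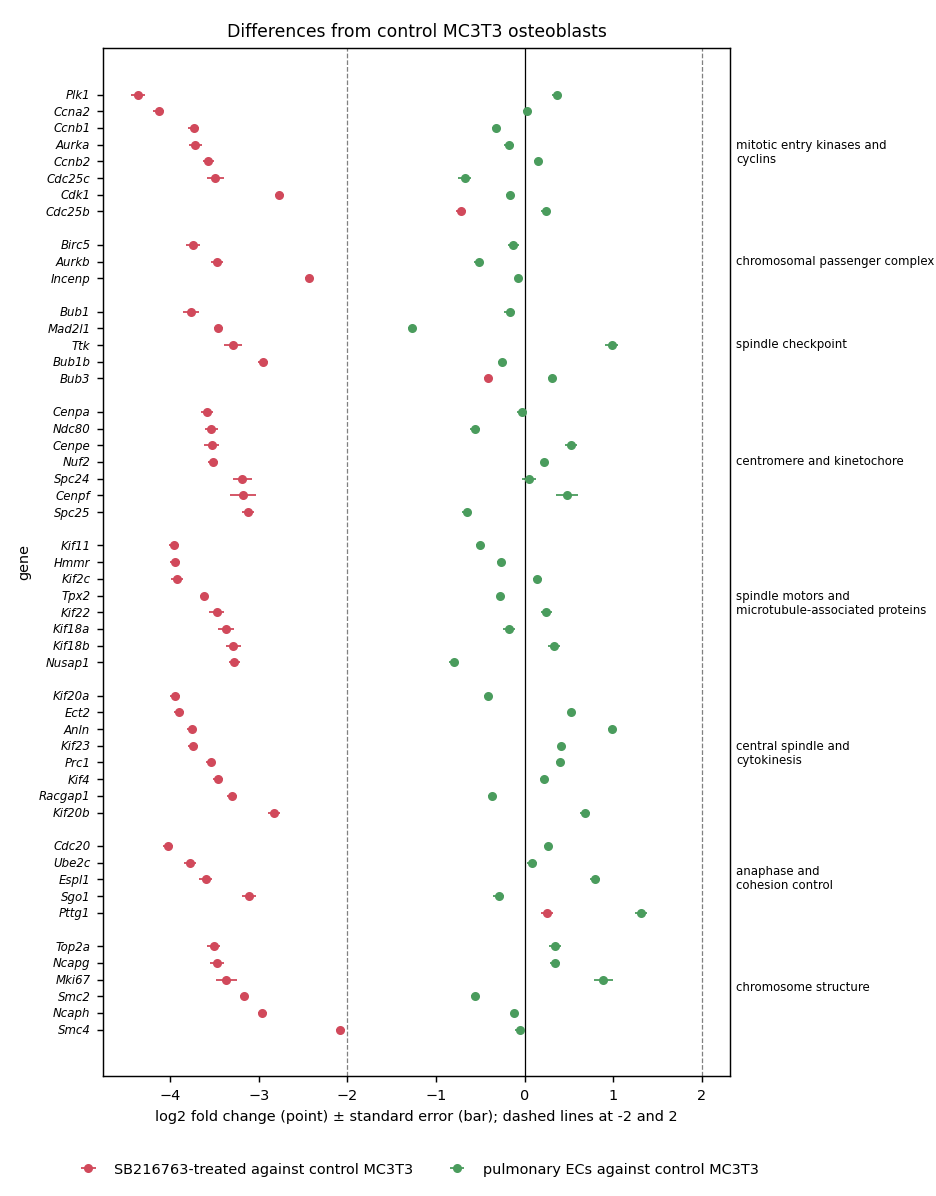
Log2 fold change of each gene against control osteoblasts (point) with its standard error (bar) in SB216763-treated osteoblasts (red) and in ECs (green), grouped by role. With SB216763, 47 genes lie beyond the dashed line at -2 and Bub3, Cdc25b, and Pttg1 lie between the lines, while the EC values lie between -1.27 and 1.31.

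**Figure D3:**
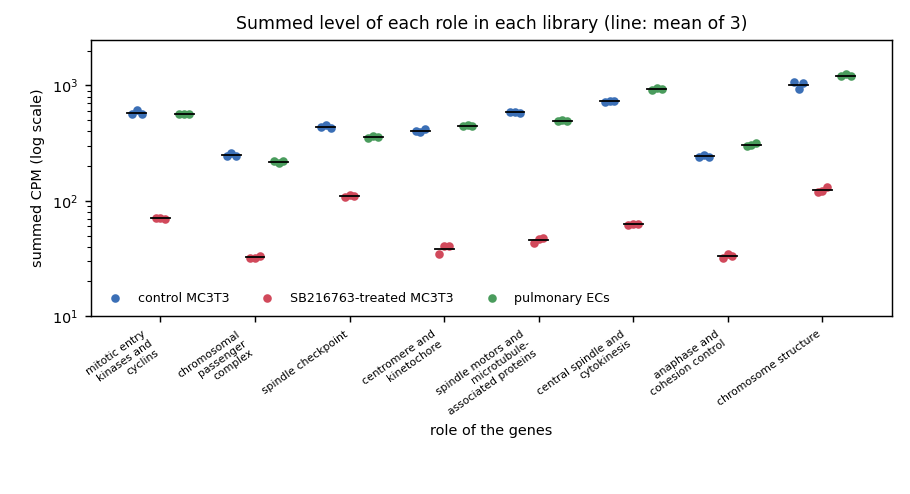
Summed CPM of each role in each library on a log scale, with a line at the mean of 3 libraries. In every role the 3 SB216763-treated libraries lie below the controls and the ECs, and the spindle checkpoint genes, which include Bub3, keep the largest share of their control level among the roles.

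The second comparison set the ECs against the control osteoblasts. The summed level of the 50 genes was 4485, 4582, and 4533 CPM in the 3 EC libraries, slightly above the 3 controls, with no overlap between the groups. Single genes went both ways: 17 members passed edgeR's test as lower in ECs, against 37.9% of all genes tested, 23 as higher, against 39%, and 10 did not pass it. Not 1 member passed the fold cutoff, against 9.87% of all genes as lower and 13.5% as higher. The libraries did not overlap in 21 members that were lower in ECs, against 41.4% of all genes, and in 23 that were higher, against 42.6%. The median log2 fold change of the members was 0.04, and 48 of 50 lay between -1 and 1. The members' share of passing genes was thus near that of all genes, and the differences were small.

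The largest differences between ECs and osteoblasts were those of Mad2l1 and Pttg1. Mad2l1 stood at 76.4, 79.1, and 74.5 CPM in the ECs against 183, 191, and 179 CPM in the controls, a log2 fold change of -1.27 ± 0.05 (SE) and the lowest of the 50. Pttg1 was highest, with 31.9, 33.3, and 33.5 CPM in the ECs and 1.31 (SE 0.07). The libraries of both genes were far apart between the groups. Anln (0.98 ± 0.04), Ttk (0.98 ± 0.07), and Mki67 (0.89 ± 0.11) were also higher in ECs, and Nusap1 (-0.80 ± 0.05), Cdc25c (-0.68 ± 0.07), and Spc25 (-0.65 ± 0.05) were lower. Ccna2, with 133, 134, and 135 CPM, Cenpa, with 85.8, 82.2, and 84.9 CPM, and Smc4, with 169.6, 177, and 157 CPM, did not pass the test, and their EC and control libraries lay at nearly the same level. Their log2 fold changes were 0.03 (SE 0.05), -0.03 (SE 0.06), and -0.05 (SE 0.05).

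The third comparison set the SB216763-treated osteoblasts against the ECs, the cells that the study used as the endothelial reference. All 50 members passed edgeR's test as lower in the treated cells, against 40.3% of all genes, and 0 as higher, against 38.3%. The fold cutoff was passed by 47 members, against 15% of all genes, and by 0 in the other direction, against 10.3%. The treated libraries lay below the EC libraries in all 50 members, against 43.8% of all genes, and above them in 0, against 41.6%. The median log2 fold change was -3.55. This comparison shares its treated libraries with the first one. Anln was farthest apart, with 10.95, 11.3, and 12.1 CPM in treated cells and 301.0, 310.4, and 309 CPM in ECs (-4.74 ± 0.05), and Plk1 was next with 72.4, 70.4, and 71.8 CPM in ECs (-4.73 ± 0.08). The 3 members that missed the fold cutoff were Bub3 (-0.72 ± 0.05), Cdc25b (-0.96 ± 0.05), and Pttg1 (-1.06 ± 0.07). Bub3 had 125, 129, and 132 CPM in the ECs and Cdc25b had 44.2, 44.6, and 44.1 CPM, so that each of them was highest in ECs, intermediate in controls, and lowest in treated cells. Pttg1 was lowest in the controls instead.

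The order of the genes within a group was read on levels per kilobase of exon, since a longer transcript gives more reads. In controls, mean levels ran from 1.75 CPM per kb for Kif18a to 44.0 CPM per kb for Cdc20, with a median of 14.8. In ECs, Cdc20 was again highest, at 52.9 CPM per kb, and Kif18a lowest, at 1.56 CPM per kb. In treated cells the order changed at the top: Bub3 led with 11.2 CPM per kb, followed by Smc4 (7.92), Pttg1 (7.86), Cdc25b (6.12), and Incenp (4.97), and the median was 1.24 CPM per kb. These 5 genes are the ones with the smallest changes. Antisense overlaps covered more than 10% of the exon length in 7 members (Ccna2, Cdc25c, Prc1, Kif4, Kif20a, Ube2c, and Ncapg), and the processed copies Ccnb1-ps and Ccnb2-ps held 1 to 50 and 12 to 113 counts in a library. The spread between replicates had a median coefficient of variation over the members of 4.18% in controls, 6.36% in treated cells, and 2.76% in ECs. Cenpf had the highest value in controls (18.9%) and in treated cells (24.01%), where its highest level was in SB216763 replicate 3, and Sgo1 in ECs (8.67%).

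The promoter letters that the choice of genes did not use were frequent among the members. A CHR core was found in 36 of the 45 member windows (80.0%), compared with 14.1% of the 13875 windows of all genes tested and 19.2% of all 32851 RefSeq windows. In the stretch from 60 bases before to 40 bases after the start, which takes in the cores of Plk1, Cenpa, and Kif23 printed above, it was present in 68.9% of member windows and in 3.75% of the windows of all genes tested. That stretch was not in the plan, which covered whole windows, and it lies where member cores are most frequent. In the 250 bases before the start alone the CHR core was present in 40% of member windows and 12.5% of those of tested genes. A CCAAT box was found in 75.6% of member windows against 37.7%, and 2 or more in 46.7% against 13.9%. Both elements occurred together in 71.1% of member windows, against 5.74% of the windows of tested genes. The E2F core was found in the windows of Cdk1 and Kif18a, 4.44% of the member windows against 1.42%. The median GC content was 59.7% in member windows and 52.7% in all RefSeq windows, and it was not computed for the windows of tested genes alone. Bub3, Ect2, and Prc1 have 2 overlapping windows each, so the windows are not independent.

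**Figure D4:**
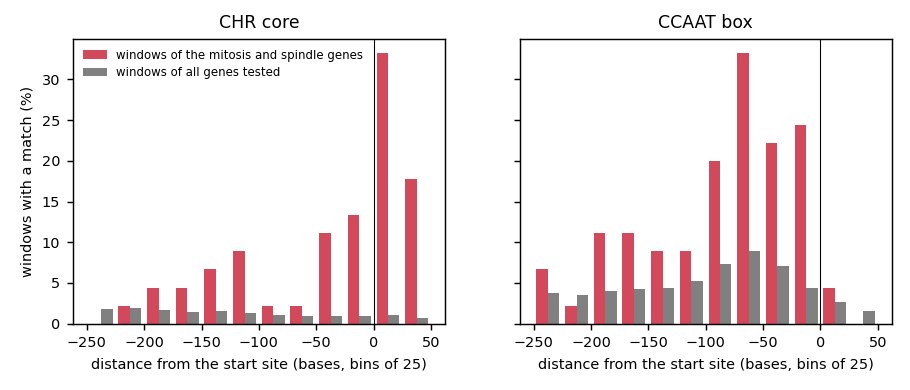
Share of promoter windows in which a CHR core (left) or a CCAAT box (right) begins in each bin of 25 bases, by distance from the start site, for the 45 windows of the members (red) and the 13875 windows of all genes tested (grey). The CHR core of the members is most frequent in the bin that starts at the first transcribed base, at 33.3% of windows against 1.03%, and the CCAAT box 75 to 51 bases before it, at 33.3% against 8.89%.

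Changes with SB216763 were set beside these letters without a test. The 33 members with a CHR core had a median log2 fold change of -3.51 with SB216763, within a range from -4.36 to -0.41. The 9 members with a window but without the core (Birc5, Ccnb1, Cenpe, Kif18a, Mad2l1, Ncaph, Nuf2, Nusap1, and Pttg1) had a median of -3.46 within a range from -3.74 to 0.25, the highest being Pttg1. The 31 members with a CCAAT box and the 11 without had the same medians, -3.51 and -3.46. Bub3 and Cdc25b, which changed little, carry both elements. The window of Pttg1, which rose, holds none of the letters searched, and neither do those of Birc5, Mad2l1, Ncaph, Nuf2, and Nusap1, which fell. The Pttg1 window (chr11:43425932-43426231) lies inside the annotated gene (chr11:43420250-43426251). So do those of Kif2c (chr4:117178723-117179022, gene chr4:117159639-117182639) and Kif4 (chrX:100625815-100626114, gene chrX:100625737-100727214). Bases upstream of the annotated starts of these genes were therefore not searched. The Mad2l1 window (chr6:66534971-66535270) ends before the annotated gene (chr6:66535390-66547220), so bases at that start were not searched. No window was held for Kif20a, Spc24, Incenp, Cdc25c, Aurkb, Smc4, Tpx2, and Ccna2.

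Other genes of the division machinery were read from lists chosen by role, also with earlier results of these data known. Of 59 further mitotic genes, 58 passed the test as lower with SB216763 and 1 as higher, 45 passed the fold cutoff as lower, and the median log2 fold change was -2.92, beside 32% lower, 32.9% higher, and 5.84% lower past the cutoff among all genes tested. Depdc1a, a mitotic gene of the DEP domain family, fell most, from 26.3, 27.5, and 24.6 CPM to 1.69, 1.54, and 1.33 CPM (-4.11 ± 0.11). Zwint, a kinetochore protein that binds KNL1, was the gene that rose, from 94.0, 101, and 93.9 CPM to 126, 125, and 114 CPM (0.34 ± 0.05). Of 42 genes of DNA replication and S phase, all 42 were lower, 23 past the fold cutoff, with a median of -2.14. Rrm2, the ribonucleotide reductase subunit that is limiting in S phase, went from 131, 142, and 128 CPM to 8.03, 8.50, and 8.61 CPM (-3.996 ± 0.06), and Slbp, which binds histone messenger RNA, changed least, from 64.3, 69.2, and 61.5 CPM to 52.0, 52.6, and 48.8 CPM (-0.35 ± 0.05).

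Transcription factors that act on mitotic and E2F genes were divided. Of 16, 11 were lower, against 32% of all genes tested, and 1 was higher, against 32.9%, and 5 passed the fold cutoff as lower, against 5.84%. The 5 were Mybl2 (B-MYB), E2f7, E2f8, Foxm1, and E2f2. Mybl2 stood at 39.0, 42.6, and 39.4 CPM in the controls and 2.01, 1.69, and 2.75 CPM in treated cells (-4.23 ± 0.10), and Foxm1 had a log2 fold change of -3.11. Among the LIN subunits of the MuvB core that binds the CHR, Lin9 was lower (-1.04 ± 0.08), Lin37 rose from 7.53, 7.96, and 7.57 CPM to 11.8, 13.0, and 13.2 CPM (0.72 ± 0.07), and Lin52 (0.05 ± 0.07) and Lin54 (0.08 ± 0.06) did not pass the test. Rbbp4, also in this list, is not described here. The groups of Mybl2 and of Lin37 did not overlap.

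The cohesin and anaphase-promoting complex genes changed less than the members at the median. Their products also work in cells that do not divide, and a link of this to the values was not tested. Of 9 cohesin genes, 8 were lower, 0 were higher, and 0 passed the fold cutoff, with a median of -0.36. Among all genes, 32% were lower and 32.9% higher, and 5.84% and 3.81% passed the fold cutoff as lower and as higher. Rad21, the subunit that separase cuts, stood at 276, 253, and 254 CPM and 156, 153, and 143 CPM (-0.79 ± 0.05), and Nipbl, the loader, at 117, 91.3, and 114 CPM and 110.3, 105, and 124 CPM, with overlapping groups and an adjusted p of 0.444 (edgeR). Of 16 genes of the anaphase-promoting complex, 9 were lower, 2 were higher, and 0 passed the fold cutoff, with a median of -0.19, beside the same shares of all genes. Ube2s, its chain-extending enzyme, went from 127, 139, and 134 CPM to 55.9, 60.7, and 55.0 CPM (-1.22 ± 0.05), and Anapc13 from 12.02, 13.7, and 11.5 CPM to 14.7, 16.7, and 15.3 CPM (0.32 ± 0.08). In the ECs, 20 of the 59 further mitotic genes were higher than in controls and 20 lower, and of the 42 replication genes 24 were higher and 8 lower, against 39% of all genes as higher and 37.9% as lower. For the further mitotic genes these counts are near the share of all genes.

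**Figure D5:**
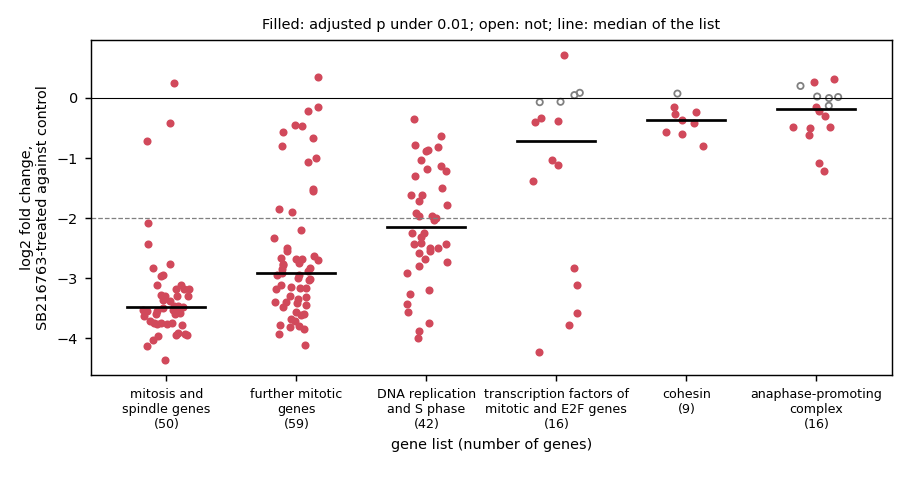
Log2 fold change of SB216763-treated against control osteoblasts for each gene of the 6 lists, with filled points for genes that passed edgeR's test, open points for the others, and a line at the median of each list. The medians go from -3.49 for the mitosis and spindle genes through -2.92 and -2.14 for the further mitotic and the replication genes to -0.19 for the anaphase-promoting complex.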

How the data were processed

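RNA-Seq was performed on 9 libraries, 3 each of control MC3T3-E1 osteoblasts, SB216763-treated osteoblasts, and mouse pulmonary ECs. The authors aligned and counted the reads with STAR (version 2.5.3a and build GRCm38 in the submitters' processing notes) and deposited whole-number counts per gene without normalization in one table. The annotation and strand setting are not given in the sources used here. The labels repeat the treatment text for every sample, so groups were taken from the sample titles. Symbols were found for 50376 of 50686 identifiers, and coordinates, exon lengths, and overlaps came from GENCODE mouse release 21 (GRCm38).

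The counts were analyzed with edgeR 4.0.16 in R 4.3.3. The filter was filterByExpr, the scaling TMM, and the test glmQLFTest in one fit of the 9 libraries. Adjustment was by Benjamini-Hochberg over all 15531 genes tested, and the study's cutoffs (0.01, and a log2 fold change of 2) were used. CPM values are TMM-normalized, and log2 fold changes used a prior count of 0.125. The edgeR, limma-voom (limma 3.58.1), and DESeq2 1.42.0 fits were tested on simulated data. The members and lists were chosen with earlier results of these data known. Named with values are 7 core genes, the extremes of each role and list, and members that went against the majority. The genes named beyond this rule were chosen after their values were seen. Alternatives were other tools and scalings, no filter, a fit of 2 groups, a replicate block, other cutoffs, and leaving out each library. No sequences of the proteins were analysed here.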

Additional observations from a re-analysis of the deposited data

How the results depend on the processing

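In the comparison of SB216763-treated with control osteoblasts, 49 of 50 members kept their direction and their side of the test in all 16 alternative fits, with Pttg1 as the exception, and all 50 did so against the ECs. Between ECs and controls 32 of 50 did. Of the other 18, 12 changed side only, 5 with no call changed sign only, and 1, Ccna2, changed both. Pttg1, the only member higher with SB216763, left a count of 0 higher members in the fit of the 2 groups alone, and leaving out 1 library gave 0 to 1 (0 without control replicate 1, control replicate 3, or SB216763 replicate 2). The median log2 fold change of the members between ECs and controls, 0.04, was 0.0189 without a filter and 0.0233 in the fit of the 2 groups alone, and leaving out 1 library gave -0.0056 to 0.0918, with the negative value without control replicate 1; the cause was not tested. Scaling by library size alone moved the median of all genes to 0.22 with SB216763, and it gave member medians of -3.28 with SB216763 and 0.17 in ECs and summed levels of 3930.2 CPM in controls, 553 in treated cells, and 4583 in ECs. With a log2 cutoff of 1 in place of 2, 1 member was lower and 1 higher in ECs. The share of all genes at that cutoff was not counted. The CHR core was in 40% of member windows and 12.5% of the windows of tested genes when upstream bases alone were searched, since many member cores begin after the start, 33.3% of windows holding one in the first 25 bases. Nipbl, at 0.07 without a call, ranged from -0.0428 (without control replicate 2) to 0.138 (without control replicate 1) when 1 library was left out, and passed the test as higher (0.28) when scaled by library size alone.

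The replicate numbers were not taken to pair the libraries, since same-numbered libraries of different groups correlated between -0.0392 and 0.123 in their deviations from the group means. With the replicate number as a block, 49 members were lower and 1 higher with SB216763 and the median was -3.49, and the block changed no other count of members.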
